A study of Macaca mulatta with 24 samples.

Results

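Adipokines are proteins that fat tissue secretes into the blood or onto neighbouring cells, and 8 genes that encode them (LEP, ADIPOQ, RETN, RARRES2, NAMPT, CCDC3, APLN and NRG4) were followed through omental white adipose tissue (WAT). A row of the count table was taken as a member where its Ensembl identifier carried the gene's symbol. By this rule 6 of the 8 genes were found among the 32386 genes of the table, and RETN and APLN were not analysed here. LEP (ENSMMUG00000005322), ADIPOQ (ENSMMUG00000002684), RARRES2 (ENSMMUG00000005232), NAMPT (ENSMMUG00000003572) and NRG4 (ENSMMUG00000020882) were named by the gene name table, and CCDC3 (ENSMMUG00000007820) by the study's supplementary tables. Those tables list genes that the study selected by its tests on these same animals. CCDC3 thus entered only because it had been selected there. Each member found had a single identifier, and all 6 passed the filter on low counts.

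The tissue came from 24 female rhesus macaques in 4 groups of 6, with 1 RNA-seq library per animal. Every animal carried a subcutaneous implant for 3 years and was biopsied in the last of them. Controls (*C*) had a cholesterol implant and monkey chow, *T* animals a testosterone implant and chow, *WSD* animals a cholesterol implant and a high-fat Western-style diet, and *T* + *WSD* animals the testosterone implant with that diet. By the sample labels the animals were 4 years old, by the study's methods older at biopsy, and age was not used. The authors picked the 6 animals of each group as typical of its fat mass and insulin findings, so the groups are not a random draw from the treated animals. The questions the design poses are what testosterone and diet each did to these transcripts, what both did together, and whether the joint effect departed from the sum of the single ones.

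Leptin reports the size of the fat stores to the brain, and its gene is expressed almost only in adipocytes, more so in enlarged ones. Adiponectin, the most abundant secreted product of adipocytes, favours insulin sensitivity, and its blood level is typically lower in obesity. Chemerin, nicotinamide phosphoribosyltransferase and neuregulin 4 act on immune cells, on NAD metabolism and on liver and other tissues, respectively, and are made by several cell types besides adipocytes.

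The libraries held between 6899185 and 28270776 counts, with a median of 20630512.5. Levels are given as CPM (counts scaled to 1000000 per library) on library sizes normalised with the trimmed mean of M values (TMM), which compare animals within a gene but not genes with each other, since transcript length was not used. Log2 fold changes, their standard errors (SE) and adjusted p values come from edgeR's quasi-likelihood F-test in 1 fit of all animals, with adjustment over the 15207 genes that passed the filter. A gene was called where its adjusted p was under 0.05 and its fold change over 1.5. In 8 libraries, 2 of each group, a single gene (ENSMMUG00000038258) took 9.92% to 54.7% of the counts, against 0.879% to 2.51% in the other 16, and these 8 are treated as a library batch, a name given here. They were also shallower, with 6899185 to 17538167 counts against 20177588 to 28270776, so depth goes with the batch. The library of *C* replicate 1, which belongs to this batch, stood apart from the other controls. Its 12 detected adipocyte markers summed to 3234 CPM and its 11 mesothelial markers to 4530 CPM, against 12514 to 30281 CPM and 107 to 2005 CPM over all other animals. The 12 adipocyte markers were present in every group, none of them at 0 throughout it.

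Against controls, edgeR called 3 of the 6 adipokine transcripts in the combined treatment and none in either treatment alone, where DESeq2 called CCDC3 in *WSD*. LEP and CCDC3 rose and RARRES2 fell in *T* + *WSD*, while ADIPOQ, NAMPT and NRG4 did not pass the test. Of all genes tested, 10% were called in this comparison, 4.72% higher and 5.29% lower. CCDC3 had a symbol only through the study's lists of genes selected in these animals, so 3 of 6 cannot be weighed against that share. The median log2 fold change of the 6 members was 0.13, beside -0.04 for all genes. These are bulk tissue libraries, in which fewer cells of a type and less RNA per cell cannot be told apart. In the same comparison, 9 of 11 mesothelial markers were called lower and 7 of 11 endothelial markers higher. KRT8 of the former and CLDN5 of the latter were also named only by the study's lists.

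**Figure D1:**
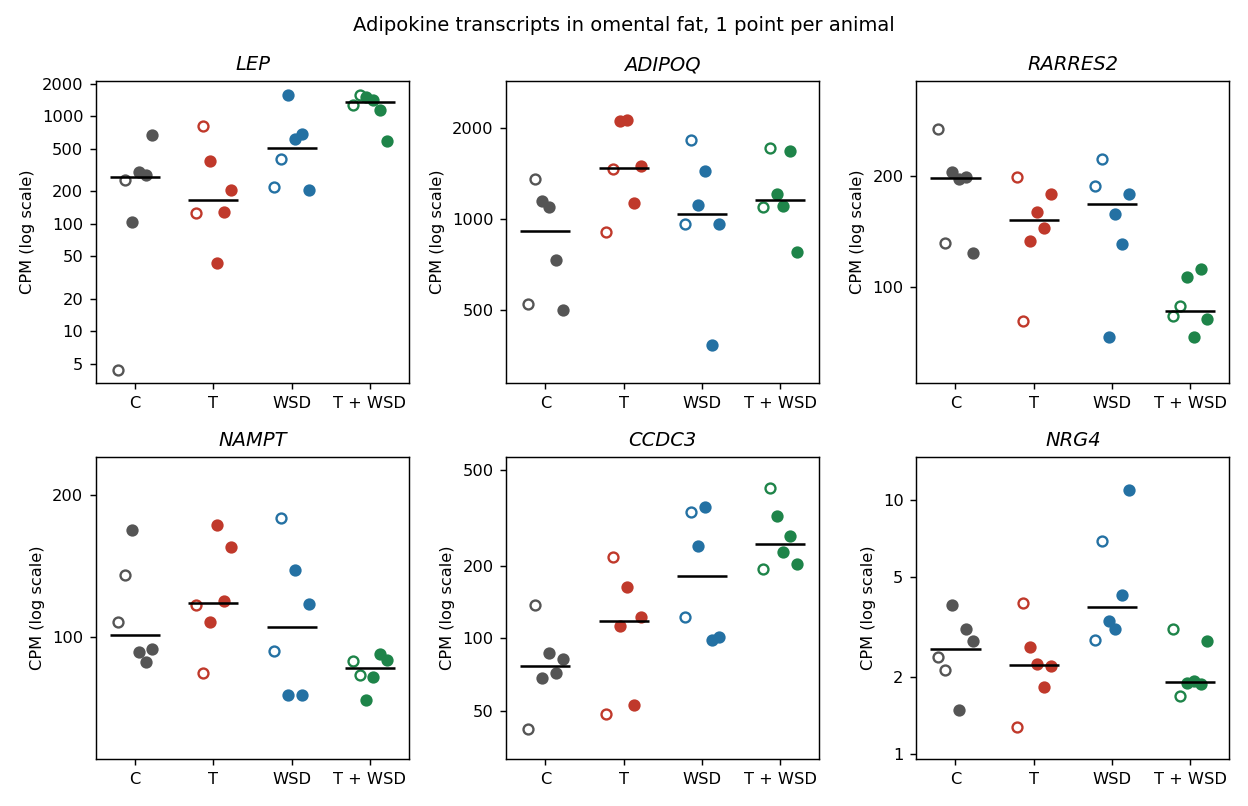
Level of the 6 adipokine transcripts in each animal, in CPM on a log axis, by group. Points are animals (6 per group), bars are group medians and open points are the 8 libraries of the library batch. All 6 *T* + *WSD* animals lie below every control for RARRES2 and above every control for CCDC3, and LEP reaches 592 to 1576 CPM in *T* + *WSD* with 1 control at 4.39 CPM.

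LEP, which encodes leptin, ran from 4.39 CPM in the lowest control through a median of 272 to 673 CPM in the highest. In *T* the lowest, median and highest values were 42.9, 166 and 815 CPM, and in *WSD* 205, 509 and 1568 CPM. In *T* + *WSD* they were 592, 1349.8 and 1576 CPM. Thus 5 of the 6 *T* + *WSD* animals lay above every control and above every *T* animal, and the sixth lay inside both ranges. How many of all genes separate in part like this was not counted, here or for the members below. Group means were 272 ± 229 in *C*, 284 ± 285 in *T*, 615 ± 507 in *WSD* and 1255 ± 360.0 CPM in *T* + *WSD* (SD, n = 6 each). LEP was 4.61-fold higher in *T* + *WSD* than in *C* (log2 fold change 2.20, SE 0.74, adjusted p = 0.0442).

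The LEP call sat close to its threshold. It was lost in 13 of the 24 fits that left out 1 animal, those without *C* replicate 1, 2, 3, 4 or 5, *T* replicate 15, *WSD* replicate 22 or 23, or *T* + *WSD* replicate 7, 8, 9, 10 or 11. Over all 24 such fits the log2 fold change stayed between 1.97 and 2.71 and the adjusted p between 0.0225 and 0.0944. Without the control at 4.39 CPM it was 1.97 with an adjusted p of 0.0544. The neighbours in the order of the LEP medians, *T* below *C*, *C* below *WSD* and *WSD* below *T* + *WSD*, did not differ beyond their spread by edgeR (adjusted p 0.995, 0.384 and 0.444). For *T* against *C* the log2 fold change was 0.06 with a 95% interval of -1.34 to 1.46. Within the 16 libraries outside the library batch it was -0.84.

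ADIPOQ, which encodes adiponectin, spanned 498 to 1358 CPM in *C* with a median of 916 CPM. Its range was 907 to 2124 CPM in *T* (median 1482), 381 to 1827 CPM in *WSD* (median 1039) and 779 to 1722 CPM in *T* + *WSD* (median 1158). The *T* group had the highest median, with 4 of its 6 animals above every control, but the ranges of all groups overlapped. The log2 fold change of *T* against *C* was 0.79 (SE 0.32) with an unadjusted p of 0.0208 and an adjusted p of 0.547 by edgeR, and was not called. In *T* + *WSD* against *C* it was 0.50, with a 95% interval of -0.11 to 1.12 and an adjusted p of 0.282. The group with the higher LEP level thus had no called difference in ADIPOQ.

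RARRES2 encodes chemerin, a chemoattractant for dendritic cells and macrophages that also acts in fat cell differentiation. Control animals held 123 to 269 CPM, with a median of 198 CPM. The medians were 152 CPM in *T* (range 80.6 to 198) and 168 CPM in *WSD* (range 72.7 to 222). In *T* + *WSD* the animals lay between 72.9 and 112 CPM, with a median of 85.8 CPM, and all 6 were below every control. Of all genes tested, 4.12% had their 6 *T* + *WSD* animals below every control. RARRES2 fell 2.07-fold in *T* + *WSD* against *C* (log2 fold change -1.05, SE 0.23, adjusted p = 0.00681). This call held in each of the 24 fits that left out 1 animal.

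CCDC3 encodes favine, a secreted protein of adipocytes and endothelial cells that promotes lipid storage in fat cells. It lay between 42.0 and 138 CPM in *C*, with a median of 77.1 CPM. The range was 48.7 to 217 CPM in *T* (median 118), 98.6 to 351 CPM in *WSD* (median 182) and 195 to 422 CPM in *T* + *WSD* (median 248). All 6 *T* + *WSD* animals and 3 of the 6 *WSD* animals lay above every control, and 3.49% of all genes had their 6 *T* + *WSD* animals above every control. CCDC3 rose 3.36-fold in *T* + *WSD* against *C* (log2 fold change 1.75, SE 0.39, adjusted p = 0.00650), in each fit that left out 1 animal too. Its means were 81.5 ± 31.7, 119.5 ± 64.9, 208 ± 117 and 273 ± 86.9 CPM in *C*, *T*, *WSD* and *T* + *WSD* (SD, n = 6 each).

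NAMPT encodes the enzyme that makes nicotinamide mononucleotide, the rate-limiting step of NAD salvage, and its extracellular form is known as visfatin. The medians were 101 CPM in *C* (range 88.4 to 169), 118 CPM in *T* (range 83.9 to 172) and 105 CPM in *WSD* (range 75.4 to 178). In *T* + *WSD* the median was 85.9 CPM, and the 6 animals spread over only 73.6 to 92.0 CPM. All of them lay below the control median and 3 below every control. The log2 fold change against *C* was -0.43 (SE 0.21) with an unadjusted p of 0.0474 and an adjusted p of 0.150, so NAMPT was not called.

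NRG4 encodes neuregulin 4, a ligand of the ERBB4 receptor that brown and white fat secrete and that acts on the liver. It was counted 6 to 265 times per library, so its values carry more counting error than those of the other members. The lowest, median and highest levels were 1.49, 2.60 and 3.87 CPM in *C* and 1.27, 2.23 and 3.95 CPM in *T*. In *WSD* they were 2.82, 3.78 and 11.02 CPM, and in *T* + *WSD* 1.70, 1.92 and 3.11 CPM. The *WSD* group was the highest, with 3 animals above every control, and 5 of the 6 *T* + *WSD* animals lay below every *WSD* animal. The share of all genes that separate as far was not counted, so these positions are descriptions. None of its differences was called by edgeR in the fit of all animals, where DESeq2 called *T* + *WSD* against *WSD*.

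**Figure D2:**
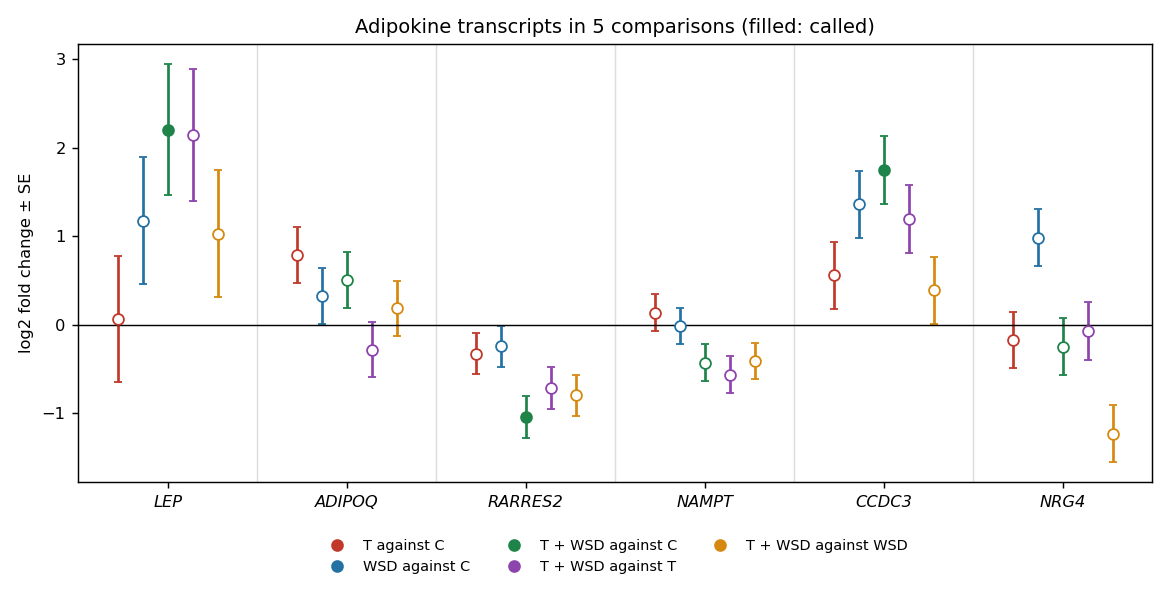
Log2 fold change with its SE for the 6 adipokine transcripts in 5 comparisons of the groups (edgeR, 6 animals per group). Filled points were called (adjusted p under 0.05 and fold change over 1.5), which holds for LEP at 2.20, RARRES2 at -1.05 and CCDC3 at 1.75 in *T* + *WSD* against *C*, and open points were not.

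With the diet alone, 0 of the 6 adipokines were called by edgeR, as were 0% of all genes. At an unadjusted p under 0.05 there were 2 of the 6, with 18.5% of all genes. These were CCDC3, with a log2 fold change of 1.36 (SE 0.38, unadjusted p = 0.00179, adjusted p = 0.131), and NRG4, with 0.98 (SE 0.32, unadjusted p = 0.00557, adjusted p = 0.148). DESeq2 called 1 member in this comparison, CCDC3, at an adjusted p of 0.0286, and 238 of the table's 32386 genes. Of those 32386, 7255 had no counts in any library. The DESeq2 counts, here and below, are thus not shares of tested genes and cannot be set beside edgeR's shares of 15207. LEP had a log2 fold change of 1.18 with a 95% interval of -0.24 to 2.59.

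With testosterone alone, edgeR and DESeq2 each called 0 of the 6, and 0% of all genes were called by edgeR. At an unadjusted p under 0.05 there was 1 member, ADIPOQ, and 8.63% of all genes. CCDC3 (0.56), RARRES2 (-0.33), NRG4 (-0.17), NAMPT (0.14) and LEP (0.06) had log2 fold changes with unadjusted p values from 0.156 to 0.935.

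Adding testosterone to the diet, the comparison of *T* + *WSD* with *WSD*, gave 0 called adipokines by edgeR, where 0.815% of all genes were called. At an unadjusted p under 0.05 there were 2, with 20% of all genes. NRG4 was lower by 1.23 on the log2 scale (SE 0.33, unadjusted p = 0.00102, adjusted p = 0.0539) and RARRES2 by 0.80 (SE 0.23, unadjusted p = 0.00236, adjusted p = 0.0703). DESeq2 called both, at adjusted p values of 0.0141 and 0.0323, and 431 of the 32386 genes. NRG4 passed edgeR's threshold in the 5 fits without *T* replicate 13 or 14 or *WSD* replicate 19, 21 or 22, and RARRES2 in the fit without *WSD* replicate 21.

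Adding the diet to testosterone, the comparison of *T* + *WSD* with *T*, also gave 0 called adipokines by edgeR, where 3.77% of all genes were called. At an unadjusted p under 0.05 there were 4 of the 6, with 25.9% of all genes. Their log2 fold changes were 2.15 for LEP (adjusted p = 0.0776), 1.19 for CCDC3 (adjusted p = 0.0602), -0.72 for RARRES2 (adjusted p = 0.0633) and -0.57 for NAMPT (adjusted p = 0.0909). DESeq2 called LEP, CCDC3 and RARRES2 along with 1090 of the table's 32386 genes, a base that includes genes without counts. With the *T* and *T* + *WSD* animals alone, edgeR called the same 3 along with 1059 of 14565 tested genes. In the fits that left out 1 animal, LEP and CCDC3 passed without *C* replicate 1, all 3 without *T* replicate 14, and RARRES2 without *WSD* replicate 21.

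The interaction asks whether the joint effect departs from the sum of both single effects on the log2 scale. At the study's threshold of an adjusted p under 0.1, edgeR and DESeq2 each called 0 of the 6 adipokines, and edgeR called 0.809% of all genes. NRG4 was the 1 member with an unadjusted p under 0.05 (13.5% of all genes), with an interaction of -1.06 (SE 0.46, unadjusted p = 0.0302, adjusted p = 0.307). The LEP interaction was 0.97 with a 95% interval of -1.01 to 2.95, and that of CCDC3 was -0.17 with an interval of -1.21 to 0.88. Since these comparisons share animals, their values are set side by side and no agreement between them was tested. Groups next to each other in the order of a member's medians were not called by edgeR in the fit of all animals for any of the 6 transcripts, while DESeq2 called RARRES2 between *T* and *T* + *WSD*, and *T* and *WSD*, which are neighbours for RARRES2, NAMPT and CCDC3, were not compared with each other.

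The 3 called transcripts differed in the same direction inside and outside the library batch, and the test without the batch called none of them. As differences of mean log2 CPM of *T* + *WSD* from *C*, CCDC3 was higher by 1.91 in the batch (2 animals per group) and by 1.71 outside it (4 per group). RARRES2 differed by -1.13 in the batch and -0.95 outside it, and LEP by 5.39 and 1.97, where the batch holds the control at 4.39 CPM. In the fit of the 16 other libraries the log2 fold changes were 1.78 for LEP (adjusted p = 0.163), 1.74 for CCDC3 (adjusted p = 0.0569) and -0.94 for RARRES2 (adjusted p = 0.0675), and 78 of 15448 genes were called. With the batch as a term in the fit of all 24, the 3 calls held, LEP at an adjusted p of 0.0497.

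Relative to the mean, the spread between animals was smallest in *T* + *WSD* for each of the 6 transcripts, which does not hold for the SD of LEP, CCDC3 and ADIPOQ in CPM. The coefficient of variation of LEP was 28.7% in *T* + *WSD* and 82.4% to 100.5% in the other groups, and that of NAMPT was 7.88% against 25.7% to 35.7%. RARRES2 varied by 16.7% against 27.5% to 32.8%. These are descriptions of 6 animals per group, and the differences in spread were not tested. The share of all genes with their smallest relative spread in *T* + *WSD* was not counted, so this may not be particular to the adipokines.

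The level of LEP relative to ADIPOQ, a ratio of circulating hormones often used to describe adipose function, was computed per animal as a difference of log2 CPM with 0.5 CPM added to each. Its median was -2.12 in *C* (range -6.74 to 0.43), -2.86 in *T* (range -5.61 to -0.84) and -1.68 in *WSD* (range -2.24 to 0.83). In *T* + *WSD* the median was 0.05 and the 6 animals lay between -0.55 and 0.36. The *T* + *WSD* animals thus formed the narrowest group and lay above every *T* animal. The highest control and the 2 highest *WSD* animals lay above all of them, and the other *C* and *WSD* animals below. This ratio was given no test. Across genes such a ratio also depends on transcript length, which is the same in every animal.

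**Figure D3:**
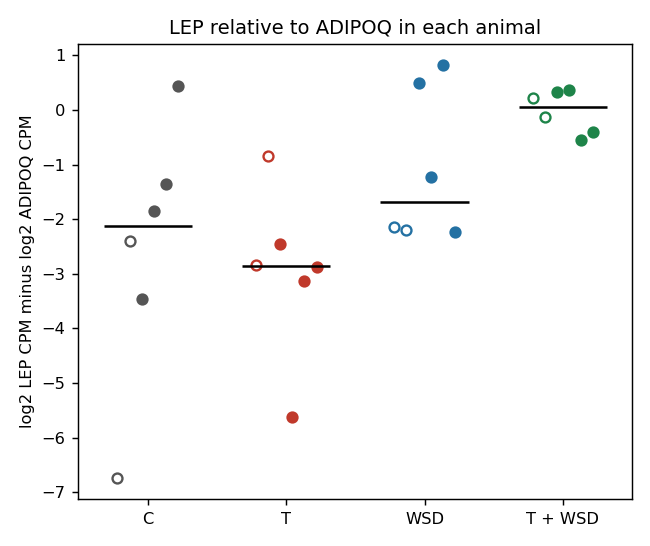
Log2 LEP CPM minus log2 ADIPOQ CPM in each animal, by group, with group medians as bars and the library batch as open points (6 animals per group). The *T* + *WSD* animals lie between -0.55 and 0.36, and the lowest control is at -6.74.

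Among the animals, LEP varied most closely with NPR3, ADCY1 and LAMC1, with Spearman correlations of log2 CPM of 0.977, 0.945 and 0.944 over the 24 libraries. NPR3 encodes the natriuretic peptide clearance receptor, ADCY1 an adenylyl cyclase and LAMC1 a laminin chain. After each group was centred on its own mean, these were 0.947, 0.876 and 0.899. Centred values stand second in the brackets below. The 3 genes closest to CCDC3 were MTMR10 (0.936, 0.760), BCL6 (0.907, 0.833) and AKAP12 (0.898, 0.830). Those closest to ADIPOQ were PHF7 (0.894, 0.889), LVRN (0.873, 0.920) and RASL10B (0.860, 0.897). RARRES2 was closest to RPUSD2 (0.888, 0.743) and MYC (0.879, 0.770), and NAMPT to JOSD1 (0.926, 0.848), CD40 (0.884, 0.804) and GLB1L (0.883, 0.840). NRG4, the member with the fewest counts, had no gene as close, with RABGGTA (0.728, 0.670), COPS5 (0.688, 0.742) and POLR2E (0.674, 0.605) leading. These are among the highest of 12624 genes each, over libraries that differ in depth and composition, and describe the libraries only.

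Between members, LEP ran with CCDC3 (Spearman correlation 0.719) and against RARRES2 (-0.797) and NAMPT (-0.757) over the 24 libraries. Centred within groups these were 0.494, -0.687 and -0.557, and in the 16 libraries outside the library batch 0.609, -0.812 and -0.835. LEP and ADIPOQ, although both are adipocyte products, had a correlation of 0.098, and ADIPOQ was closer to CCDC3 (0.576, and 0.762 centred). Outside the library batch these 2 pairs had -0.215 and 0.421.

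The receptors through which these proteins act were measured in the same tissue. Of 12 receptor and partner genes 11 were tested, and 0 were called by edgeR in any comparison, where at most 10% of all genes were called. Their median log2 fold change in *T* + *WSD* against *C* was 0.18, beside -0.04 for all genes, with 2 of the 11 at an unadjusted p under 0.05, as were 32.1% of all genes. ERBB3, a partner of the neuregulin receptors, had a log2 fold change of -0.32 (SE 0.11, adjusted p = 0.0494), under the 1.5-fold threshold. APLNR, the apelin receptor of endothelial cells, had 0.97 (SE 0.37, adjusted p = 0.0755), and DESeq2 called it at an adjusted p of 0.0438. LEPR, the leptin receptor, averaged 67.0 ± 34.6 CPM in *C* and 102 ± 36.4 CPM in *T* + *WSD* (SD, n = 6 each, log2 fold change 0.61, adjusted p = 0.310). For the adiponectin receptors the log2 fold changes were 0.10 (ADIPOR1), 0.18 (ADIPOR2) and 0.18 (CDH13). The chemerin receptors stood at 0.46 (CMKLR1), 0.12 (GPR1) and 0.28 (CCRL2), and ERBB4, the receptor that binds neuregulin 4, at 0.54, with adjusted p values of these 7 genes from 0.300 to 0.884.

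**Figure D4:**
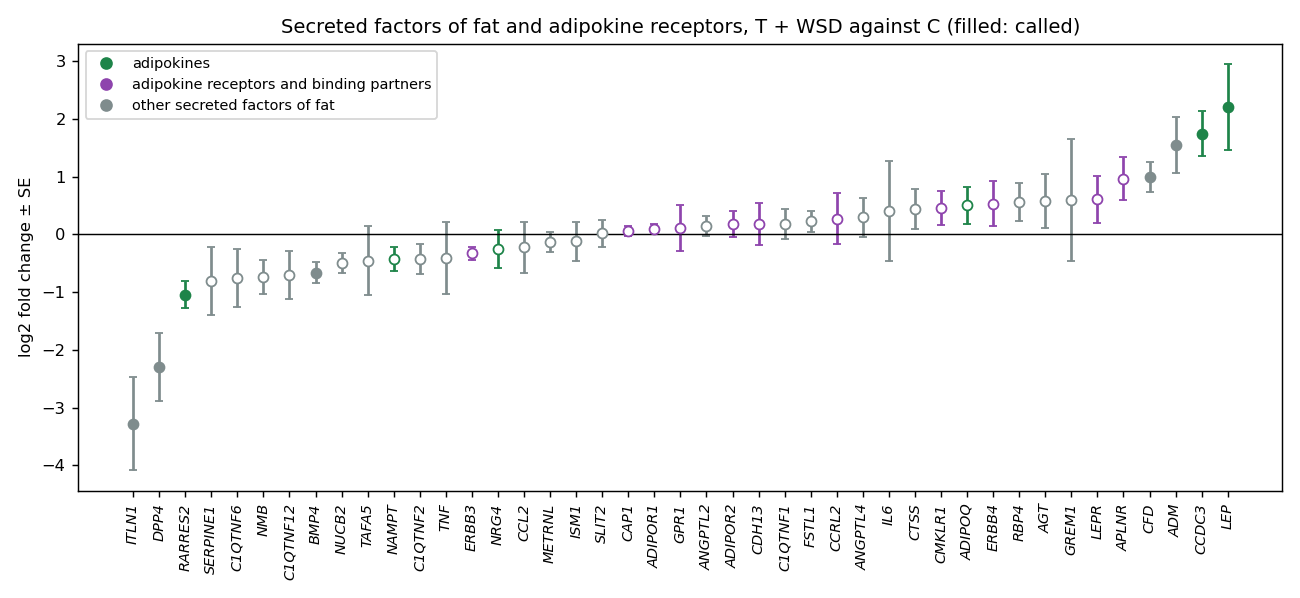
Log2 fold change with SE in *T* + *WSD* against *C* for the 6 adipokines, 11 receptors and partners and 26 other secreted factors of fat, in rising order (edgeR, 6 animals per group). Filled points were called, which leaves LEP, CCDC3, ADM and CFD on the higher side and ITLN1, DPP4, RARRES2 and BMP4 on the lower side.

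Of 45 other secreted factors of fat, 32 were found in the table and 26 tested. In *T* + *WSD* against *C* 2 of the 26 were called higher and 3 lower, beside 4.72% and 5.29% of all genes. Their median log2 fold change was -0.12. CFD, which encodes adipsin, the complement factor D of adipocytes, rose by 0.99 (SE 0.26, adjusted p = 0.0132), from 645 ± 207 to 1282 ± 246 CPM (SD, n = 6 each). The CFD call held in every fit without 1 animal and was lost in the 16 libraries outside the library batch (1.03, adjusted p = 0.118) and with the mesothelial term (0.60). In those 2 fits, 78 of 15448 and 0 of 15207 genes were called. ADM, the gene of the vasodilator adrenomedullin, rose by 1.55 (SE 0.49, adjusted p = 0.0321), a call that was lost without *C* replicate 3, 4 or 5 or *T* + *WSD* replicate 8 or 11.

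ITLN1, which encodes omentin, a lectin abundant in omental fat, fell by 3.28 on the log2 scale (SE 0.81, adjusted p = 0.0109). It ranged from 1736 to 35030.1 CPM in *C* and from 175 to 2621 CPM in *T* + *WSD*, so that the groups overlapped. DPP4, a peptidase that is shed from fat and cleaves incretins, fell by 2.30 (SE 0.59, adjusted p = 0.0124), and BMP4, a growth factor that commits precursors to the fat lineage, by 0.66 (SE 0.19, adjusted p = 0.0186). *C* replicate 1 weighed on all 3 of these. Without it the log2 fold change was -2.31 for ITLN1, -1.44 for DPP4 and -0.43 for BMP4, and only that of ITLN1 was still called. By edgeR, 0 of the 26 secreted factors were called in each of the other comparisons, where 10 had an unadjusted p under 0.05 in *WSD* against *C* (18.5% of all genes), 4 in *T* + *WSD* against *WSD* (20%), and 2 each in *T* against *C* (8.63%), *T* + *WSD* against *T* (25.9%) and the interaction (13.5%).

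Among 11 tested genes that regulate leptin and adiponectin expression or secretion, CEBPD, an early transcription factor of adipogenesis, fell in *T* + *WSD* against *C* by 1.34 (SE 0.44, adjusted p = 0.0389). GLUL, glutamine synthetase, fell in *T* + *WSD* against *WSD* by 1.34 (SE 0.31, adjusted p = 0.0367), with 409 ± 258 CPM in *WSD* and 161 ± 36.3 CPM in *T* + *WSD*. Each of these calls was lost in 8 of the 24 fits without 1 animal. The median of the 11 genes in *T* + *WSD* against *C* was 0.05, and no other gene of this list was called in a comparison. Of all genes tested, 10% were called in *T* + *WSD* against *C* and 0.815% in *T* + *WSD* against *WSD*.

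Within leptin signalling, 7 genes were tested and IRS1, which encodes an insulin receptor substrate that leptin and insulin signals share, was called. It fell in *T* + *WSD* against *T* by 0.86 (SE 0.20, adjusted p = 0.0178), from 155 ± 45.9 to 85.3 ± 14.5 CPM, in every fit without 1 animal. Its interaction was -1.24 (SE 0.28, adjusted p = 0.0564), under the threshold of 0.1, and was lost in 8 of the 24 fits without 1 animal and in the 16 libraries outside the library batch (adjusted p = 0.343). IRS1 stood at 91.2 ± 25.6 CPM in *C* and 118 ± 29.5 CPM in *WSD*, so *T* was the group with the highest mean. Of 12 tested genes of NAD synthesis and use, QPRT, the enzyme that enters NAD synthesis from quinolinate, fell in *T* + *WSD* against *C* by 0.64 (SE 0.17, adjusted p = 0.0163), a call lost without *T* + *WSD* replicate 8, where the fold change dropped under 1.5. PARP1, an NAD-consuming DNA repair enzyme, had an interaction of -0.43 (SE 0.11, adjusted p = 0.0997), which was lost in 19 of the 24 fits without 1 animal. In the 16 libraries outside the library batch, and also with the mesothelial term, the calls of ADM, ITLN1, DPP4, BMP4, CEBPD, GLUL, QPRT and PARP1 were lost. That of IRS1 in *T* + *WSD* against *T* was lost with the term (adjusted p = 0.171) but not in the 16 libraries. The 16 libraries gave 78 of 15448 genes in *T* + *WSD* against *C* and 0 in *T* + *WSD* against *WSD*. The interaction had 2 there and *T* + *WSD* against *T* 308. With the term these counts were 0, 1, 70 and 0 of 15207, and in the fit of all animals 1522, 124, 123 and 574. Calls over all genes were thus lost as well, in part or in full. Whether these genes lost their calls more often than other genes was not tested.

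Cell type markers moved with these results. In *T* + *WSD* against *C*, 9 of 11 tested mesothelial markers were called lower, and their summed level was 107 to 568 CPM in *T* + *WSD* and 1065 to 4530 CPM in *C*. Of 11 endothelial markers 7 were higher (summed 2049 to 3161 CPM against 1079 to 1811 CPM), and of 8 smooth muscle and pericyte markers 3 were higher (1388 to 1878 CPM against 697 to 1545 CPM). Adipocyte markers had 1 of 12 called higher, with a median log2 fold change of 0.60 and summed levels of 18795 to 28896 CPM in *T* + *WSD* and 3234 to 20370.0 CPM in *C*. Macrophage markers had 2 of 13 higher, fibroblast and progenitor markers 1 of 9 higher, neutrophil and monocyte markers 2 of 7 lower and erythroid markers 1 of 4 lower. Neither the 7 T and NK cell nor the 4 B and plasma cell markers had a call. Of all genes tested, 4.72% were called higher and 5.29% lower in this comparison. The single tested hepatocyte and pancreas marker was called higher. The 8 such genes in the table summed to 40.1 CPM in *T* + *WSD* replicate 11 alone. They reached at most 6.09 CPM in the other *T* + *WSD* animals and 2.52 CPM in the other groups.

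Across the 24 libraries, RARRES2 ran with the summed mesothelial markers (Spearman correlation 0.707, and 0.826 in the 16 libraries outside the library batch). LEP and CCDC3 ran with the summed adipocyte markers (0.767 and 0.840) and against the mesothelial ones (-0.759 and -0.786). In those 16 libraries these were weaker, at 0.641 and 0.779, and at -0.629 and -0.674. With the summed endothelial markers the correlations were 0.761 for LEP, 0.611 for CCDC3 and -0.739 for RARRES2 (0.650, 0.588 and -0.706 in the 16). ADIPOQ had 0.537 with the adipocyte markers (0.315 in the 16). With the fibroblast and progenitor markers it had -0.600 (-0.765 in the 16). NRG4 followed neither the adipocyte nor the mesothelial list (0.073 and -0.036). When the averaged mesothelial markers entered the fit as a term, the log2 fold changes in *T* + *WSD* against *C* were 0.89 for LEP, 0.71 for CCDC3 and -0.42 for RARRES2, and 0 of 15207 genes were called. Because these markers separate *T* + *WSD* from *C*, the treatment and the share of mesothelial RNA cannot be told apart in these animals, and the part of the adipocyte, endothelial and smooth muscle markers was not tested.

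**Figure D5:**
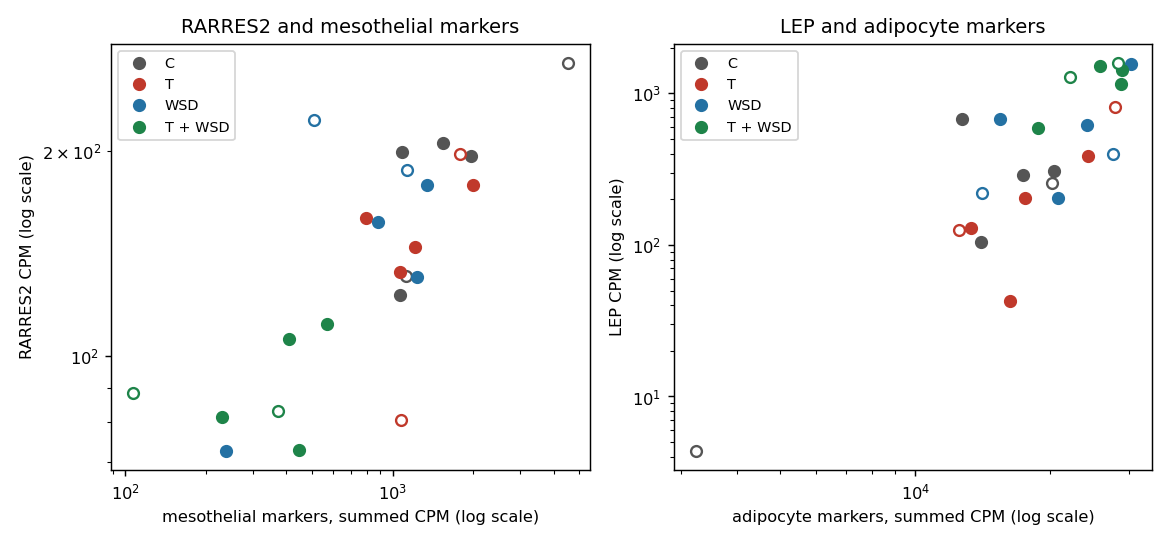
RARRES2 against the summed mesothelial markers (left) and LEP against the summed adipocyte markers (right), in CPM on log axes, with 1 point per animal coloured by group and the library batch open. The *T* + *WSD* animals gather at low mesothelial sums (107 to 568 CPM) and high adipocyte sums (18795 to 28896 CPM), and *C* replicate 1 lies alone at 4530 and 3234 CPM.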

How the data were processed

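Single-read libraries were made from ribosome-depleted RNA of omental WAT biopsies (RIN over 8). Per the study's methods and the submitters' processing notes, the authors checked reads with FastQC 0.11.5, trimmed them with Trimmomatic 0.36, aligned them to rheMac8 with STAR 2.5.2b and used DESeq2 1.18.1. The authors deposited 1 table of raw, not normalized counts per Ensembl gene and animal. The counting tool and its strand setting are not given in the sources used here, so overlapping and antisense genes are uncertain. The authors' own fold changes were not used. Bisulfite data were not analysed here.

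Groups were taken from the sample labels. No pair of libraries within a group was identical. Counts were tested in R 4.3.3 with edgeR 4.0.16 (TMM, filterByExpr with a minimum count of 10 and minimum total of 15, glmQLFit with robust=TRUE and legacy=TRUE, quasi-likelihood F-test, 1 fit of 4 groups, Benjamini-Hochberg adjustment over 15207 genes, two-sided). DESeq2 1.42.0 was an alternative. A 95% interval is the log2 fold change with a normal margin from its SE. The fit was checked on simulated data.

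The members and the lists of related genes and markers were chosen with earlier results of these data known, so counts over them are descriptions. Named genes were the members, the receptors of members, the genes of the other lists (markers aside) that were called, and the 3 genes with the highest Spearman correlation with each member, of which 1 is not reported here. The gene name table gave symbols for 17621 genes and the supplementary tables for 230. The latter name only genes that the study selected by its tests on these animals. Among the listed genes these were CCDC3, SOCS3, FABP4, KRT8, CLDN5 and TTR. Alternatives were DESeq2, other normalizations and filters, other thresholds, legacy=FALSE, only the groups compared, the library batch left out or as a term, the mesothelial list as a term, other pseudocounts, and each animal left out.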

Additional observations from a re-analysis of the deposited data

Results flagged for a closer look

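LEP in *WSD* replicate 21 was 1568 CPM, the highest of its group, with the nearest animal at 678 CPM. The gap took 0.653 of the group's range, above the critical value of 0.625 of Dixon's test for 6 values. It was the 1 value marked among 28 groups of 6 tested in this way (the members' levels and the ratio of LEP to ADIPOQ), and chance marks about 1 in 20.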

How the results depend on the processing

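The count of adipokines called in *T* + *WSD* against *C* was 3, with 1522 of 15207 genes called. It dropped to 0 in the 16 libraries outside the library batch, where 78 of 15448 genes were called. With the mesothelial list mean as a term it dropped to 0 as well, with 0 of 15207 genes. In *WSD* against *C* the adipokine count was 0 and became 1 with DESeq2 (238 of the table's 32386 genes). In *T* + *WSD* against *WSD* it was 0 and became 2 with DESeq2 (431 of 32386) and 1 with legacy=FALSE (176 of 15207). In *T* + *WSD* against *T* it was 0 and became 3 with DESeq2 (1090 of 32386) and 3 with only the groups compared (1059 of 14565). With each animal left out in turn, the adipokine counts ran from 2 to 3, 0 to 0, 0 to 2 and 0 to 3, and from 0 to 0 for both *T* against *C* and the interaction. The LEP call was also lost without a filter on low counts (adjusted p = 0.0813) and with only the groups compared (adjusted p = 0.0555).

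Of the log2 fold changes that turned sign, those of DPP4 and ITLN1 had been called in the fit of all animals and the others had not. With the mesothelial term they were -0.053 for ADIPOQ, -0.39 for ADIPOR2, -0.77 for CCRL2, -0.29 for CDH13, 0.35 for DPP4 and 0.37 for ITLN1 in *T* + *WSD* against *C*, -0.14 for ADIPOQ and -0.20 for CCDC3 in *T* + *WSD* against *WSD*, 0.023 for NRG4 in *T* + *WSD* against *T* and -0.040 for LEP in *T* against *C*. In the 16 libraries they were -0.84 for LEP in *T* against *C*, and -0.025 for ADIPOR2, -0.11 for CDH13 and -0.032 for GPR1 in *T* + *WSD* against *C*. With an animal left out, LEP in *T* against *C* ran from -0.62 to 0.56, NAMPT in *WSD* against *C* from -0.19 to 0.12, NRG4 in *T* + *WSD* against *T* from -0.20 to 0.12, GPR1 in *T* + *WSD* against *C* from -0.055 to 0.36 and the CCDC3 interaction from -0.37 to 0.086. The cause was not tested.

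Of the adipokines' log2 fold changes, 390 under other settings and 826 with an animal left out kept their sign and their side of the threshold. Under other settings 6 turned sign, 8 lost a call and 10 gained one. With an animal left out these numbers were 13, 13 and 12. Settings that only changed a threshold reuse the same fit, and an animal of neither group compared hardly moves a value. Most values also had no call to lose, so many of those kept had little room to change. The median ratio of LEP to ADIPOQ moved by less than 1 SD with the other pseudocounts. Leaving out 1 of 6 animals cannot move a median by 1 SD, so that rule decided nothing there. With an animal left out the median ran from -2.40 to -1.84 in *C*, -2.88 to -2.84 in *T*, -2.14 to -1.23 in *WSD* and -0.13 to 0.23 in *T* + *WSD*. No member had a further identifier to try. No paired analysis was possible because the replicate numbers differ between all groups. The 95% interval of LEP reached from 0.75 to 3.66 in *T* + *WSD* against *C*, which limits what 6 animals per group could resolve for it.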
